A study of Ovis aries with 6 samples.

Results

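Helper T cell-like nuclei that carried RNA of LEF1 and CD4 were described in the rumen epithelium of lambs. They were picked by counts, not by clustering. Among nuclei with at least 400 genes detected and at most 10% mitochondrial UMIs (unique transcript tags), a nucleus was taken if it held a UMI of at least 4 of the 6 genes LEF1, CAMK4, TCF7, CD28, CD4 and THEMIS. It also had to hold no UMI of IL17A, IL17F, IL22, IL26, PAX5 or GNLY, and a UMI of at most 1 of 4 keratinocyte genes (TP63, DSG1, DSC2 and COL17A1) and of at most 1 of 4 cycling genes (TOP2A, CENPF, ANLN and ASPM). In all, 1650 of 42130 filtered nuclei met these limits, from 67553 barcodes.

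The nuclei came from frozen epithelium of the ventral sac of the rumen, the largest forestomach chamber, of 6 male sheep that the series describes as lambs. The labels place 3 animals in a treatment named MGNS and 3 in one named MGHS, and give no strain, age or transgene. They do not spell out these names, and the title concerns grazing sheep and supplementary feeding. Each animal gave 1 droplet library of nuclear RNA, so the animal is the replicate, and the labels call the samples rumen epithelial cells without naming immune cells.

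Helper T cells recognise peptides on MHC class II molecules through the T cell receptor and the co-receptor CD4, and direct other immune cells by contact and by cytokines. In resting T cells the transcription factors LEF1 and TCF7 (whose protein is also called TCF1), known from Wnt signalling, are high. Both fall as cells become effectors. In gut linings, helper T cells sit in and under the epithelium, where many are memory cells held in the tissue rather than circulating ones.

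The selected nuclei numbered 416, 618 and 241 in MGNS 1, 2 and 3, and 132, 121 and 122 in MGHS 1, 2 and 3. The libraries held 34418856 to 59997793 UMIs. Median depth of the selected nuclei ran from 3032 to 4644 UMIs by library, and their summed UMIs from 484604 in MGHS 2 to 2712019 in MGNS 2, so gene values in MGHS rest on fewer molecules. Of 67021 different barcodes, 515 occurred in more than 1 library, and 0 of the 1650 helper T-like barcodes were helper T-like in 2 libraries. MGHS 3 stood apart: 91.0% of its helper T-like nuclei held a UMI of 2 or more of 12 keratinocyte marker genes, against 34.7% to 47.0% in the other 5 libraries, and 45.1% held 2 or more of 9 fibroblast marker genes, against 16.6% to 25.0%. List medians, counts of calls and the differences in the share of helper T-like nuclei are therefore also given without it. Scrublet called 103 of the 1650 nuclei doublets, from 7 to 25 per library, and they were kept in the main values. MGNS 1 had 7 such calls among 416 selected nuclei, MGNS 2 had 25 among 618 and MGNS 3 had 24 among 241. MGHS 1 had 16 among 132, MGHS 2 had 13 among 121 and MGHS 3 had 18 among 122. Called doublets thus formed a larger part of the set in every MGHS animal, with MGHS 2 close to MGNS 3. The calls in MGNS 1 followed a different rule.

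The 6 marker genes chose these nuclei, so their values are a description and carry no test. CAMK4, a calcium-dependent kinase, was detected in 95.8% of the 1650 nuclei and LEF1 in 92.1%. THEMIS, an adaptor of T cell receptor signalling, was detected in 77.4% and CD4 in 73.8%. CD28, the receptor for co-stimulation, was found in 58.8% and TCF7 in 54.0%. The lack of both TCF7 and CD28 was the most common combination, in 243 nuclei (14.7%), and all 6 genes were found in 170 (10.3%). Nuclei without a CD4 UMI are thus part of the set.

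Just inside the limit, 963 nuclei held 4 of the 6 genes, and just outside it, 1251 nuclei that met every other limit held 3. CD3E, a chain of the T cell receptor complex that the rule did not use, was detected in 67.1% to 83.7% of nuclei with 4 genes, by library, and in 64.4% to 78.7% of those with 3. Their median depths were 2928 to 4209 UMIs with 4 genes and 2324.5 to 3779 with 3. Within each of the 6 libraries, nuclei with 4 genes had the higher CD3E share and the higher median depth, while the ranges across libraries overlapped.

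The helper T label was checked against genes outside the rule (the plot of genes detected shows each library). IL7R, the receptor chain through which interleukin 7 keeps resting T cells alive, was detected in 80.1% of the nuclei. ICOS, a co-stimulatory receptor induced on activated and memory helper cells, was detected in 75.0%, and CD40LG, the contact signal of helper cells to B cells, in 28.9%. CD8A, the co-receptor of cytotoxic T cells, was detected in 2.7% and CD8B in 10.3%.

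These shares were set against nuclei that should lack the genes, all thinned to 2000 UMIs because keratinocyte nuclei were deeper (median 9664 to 12904.5 UMIs by library). By library, IL7R was then found in 55.3% to 73.7% of helper T-like nuclei and 1.7% to 7.4% of keratinocyte nuclei (at least 3 of TP63, DSG1, DSC2 and COL17A1). For CD40LG the ranges were 12.3% to 30.1% and 0.2% to 1.1%. CD8A and CD8B, at 0% to 4.1% and 3.4% to 7.6% of helper T-like nuclei, reached 18.1% to 29.4% and 21.7% to 40.5% of nuclei gated on cytotoxic genes. IL7R and CD40LG were thus more frequent in helper T-like nuclei than in keratinocyte nuclei, and CD8 genes rarer than in the cytotoxic gate. At equal depth, IL7R was also found in 44.8% to 59.0% of other T-lineage nuclei (at least 3 of 7 T cell genes). It was in 53.8% to 63.3% of nuclei with 2 or more of IL17A, IL17F, IL22 and IL26. For CD40LG these ranges were 8.0% to 19.3% and 13.0% to 31.4%. All 4 overlapped the helper T-like ranges. In the cytotoxic gate both genes were lower, at 16.5% to 41.2% and 1.9% to 5.5%.

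The label calls these cells resting, and its genes outside the rule were unevenly detected. CCR7, which guides T cells into lymph nodes, was detected in 13.9% of the nuclei, and S1PR1, which lets them leave, in 18.3%. At equal depth, CCR7 was found in 3.5% to 11.3% of helper T-like nuclei by library and in 0% to 0.7% of keratinocyte nuclei. IFNG, the effector cytokine of type 1 cells, had a UMI in 1 of 1650 nuclei, and IL21, a follicular helper cytokine, in 12. CCR7 RNA was thus found in few nuclei and ICOS RNA in most.

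Genes of helper subsets were uneven. GATA3, a factor of type 2 helper cells and of T cell development, was detected in 44.1% of the nuclei. CTLA4, the inhibitory receptor of regulatory and activated T cells, was detected in 15.6%, and IL2RA, the high-affinity chain of the interleukin 2 receptor, in 12.6%. FOXP3, the defining factor of regulatory T cells, had a UMI in 27 nuclei (1.6%), and at equal depth its range of 0% to 1.5% overlapped the 0.1% to 0.7% of keratinocyte nuclei, so FOXP3 could not be told from background.

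**Figure D1:**
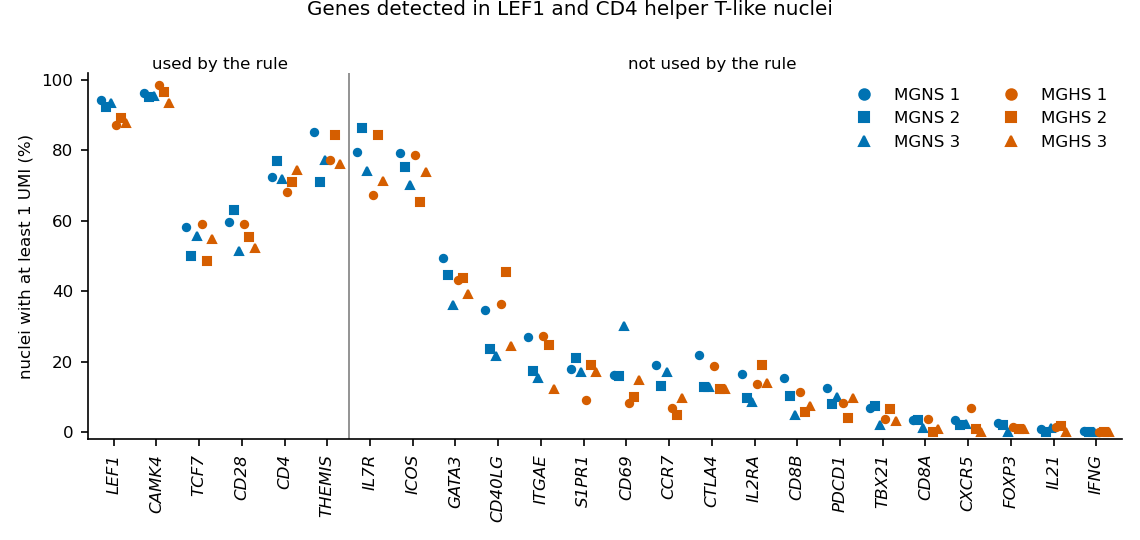
Percent of helper T-like nuclei with at least 1 UMI of each gene (y axis) for 24 genes (x axis), 1 point per animal, blue for MGNS and orange for MGHS. The 6 genes left of the line chose the nuclei. IL7R and ICOS sat above 60% in all 6 animals, and FOXP3, IL21 and IFNG near 0.

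Within the set, co-detection was described on nuclei thinned to 2000 UMIs, pooled over libraries, with no test because the nuclei of an animal share their source. TCF7, a gene of the rule, was found in 58.3% of the 127 nuclei with a CCR7 UMI and in 32.4% of the 1400 without one. The share was higher in 5 of 6 libraries. GATA3 went the other way, with 18.9% against 28.2% and a lower share in all 6 libraries. TIGIT, an inhibitory receptor, was found in 1.6% of nuclei with CCR7 and 6.9% of those without, also lower in all 6.

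The 158 nuclei with a CTLA4 UMI were described in the same way. ICOS was found in 73.4% of them against 58.9% of the 1369 nuclei without CTLA4, and IKZF2, a factor frequent in regulatory T cells, in 51.3% against 31.8%, both higher in all 6 libraries. TCF7 was found in 20.9% against 36.2%, lower in all 6. FOXP3 was in 5 of the 158, or 3.2%, against 0.4%, and was higher in 2 of 6 libraries. TCF7 was thus more frequent beside CCR7 and less frequent beside CTLA4, and 10 nuclei carried both CCR7 and CTLA4. As TCF7 is one of the 6 genes that chose the nuclei, its shares inside the set depend in part on the rule.

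Levels are given as CPM, the gene's UMIs scaled to a common total in the summed nuclei of an animal, a computed unit that supports comparison of 1 gene between nuclei but not of different genes. Across the 26741 genes, 20 led by the smallest of the 6 per-animal log2 ratios to all other filtered nuclei, with 5 CPM added. The first was TAFA2, which encodes a secreted chemokine-like protein. Its level in helper T-like nuclei was 1139, 1563 and 1549 CPM in MGNS 1 to 3 and 1307, 772 and 1115 CPM in MGHS 1 to 3. All 6 animals lay far above the mean of 75.6 CPM in other nuclei, with log2 ratios from 3.44 to 5.52.

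The next leading gene was SAMHD1, a hydrolase of DNA building blocks, at a mean of 1517 CPM over the 6 animals against 254 CPM in other nuclei. The rest included receptor-proximal signalling genes (LCK, SKAP1, GRAP2 and FYB1) and surface receptors (IL7R, ICOS, CD5, CD52 and IL18R1). CD40LG, LTB (lymphotoxin beta), STAT4, SIDT1, ZNF831, ACOXL, GPRIN3 and SCML4 were also among them. Because the nuclei were chosen for T cell genes, these leaders describe the set and test nothing.

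The leaders were then set against other T cells. Of the 20, 14 were higher in helper T-like nuclei than in the remaining T-lineage nuclei (at least 3 of 7 T cell genes) of the same animal in all 6 animals, and 13 were higher than in the cytotoxic gate. In the same sense, 7 were higher than nuclei with 2 or more of IL17A, IL17F, IL22 and IL26. TAFA2 was among them, with means of 422 CPM in other T-lineage, 70.3 CPM in cytotoxic and 387 CPM in IL17 or IL22 nuclei. ICOS was not: its mean was 792 CPM in helper T-like and 1589 CPM in IL17 or IL22 nuclei, which were higher in all 6 animals.

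Genes known from other T cell states were uneven. CCL5, a chemokine of cytotoxic and memory cells, had a mean of 113 CPM in helper T-like nuclei and 2004 CPM in the cytotoxic gate. CCL5 is one of the genes that defined this gate, so its high level there follows from the selection. BLK, a kinase known from gamma delta T cells and B cells, had 13.2 CPM against 97.6 CPM in other T-lineage nuclei. Both, and CD8A and CD8B, were lower than in other T-lineage nuclei in all 6 animals. RORA, a nuclear receptor known from type 17 cells, was at 2207 CPM, above the cytotoxic gate (1269 CPM) and below IL17 or IL22 nuclei (3928 CPM) in all 6 animals. STAT4 and IL18R1, known from type 1 cells, were among the 20 leading genes above. GATA3, at 192 CPM, and S1PR1, at 49.2 CPM, were higher than in other T-lineage, cytotoxic and IL17 or IL22 nuclei in all 6.

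**Figure D2:**
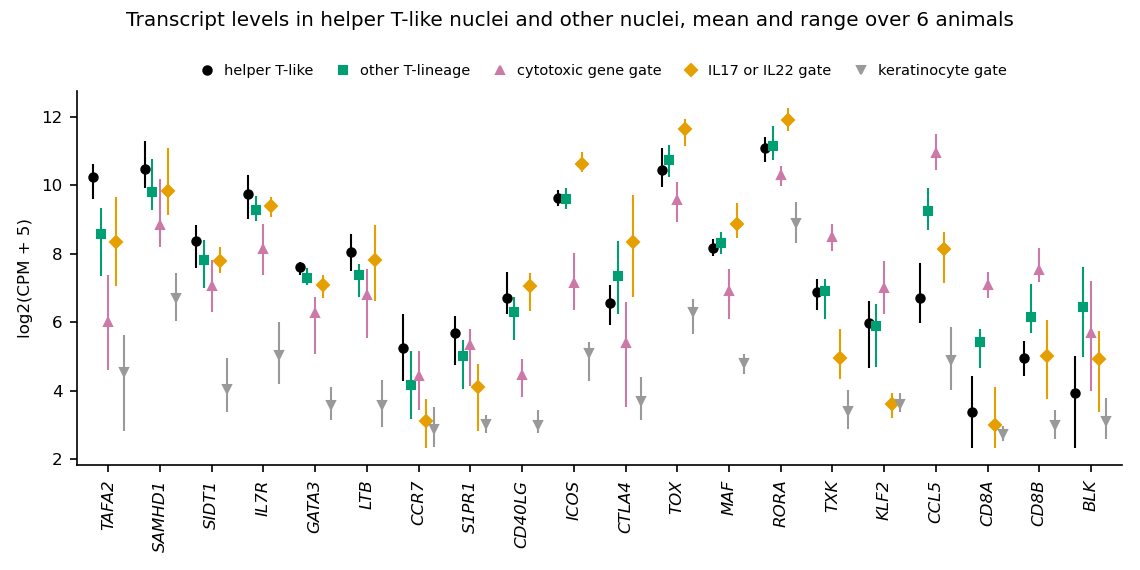
Level of 20 genes (x axis) as log2(CPM + 5) (y axis) in helper T-like nuclei and 4 other gates, which can share nuclei with each other but not with the helper T-like set. Points are means over 6 animals and lines run from the lowest to the highest animal. TAFA2 was highest in helper T-like nuclei, ICOS, TOX and RORA in IL17 or IL22 nuclei, and CCL5 and CD8B in the cytotoxic gate. CCL5 is one of the genes that defined the cytotoxic gate.

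The first comparison asked whether helper T-like nuclei made up a different share of the tissue in the 2 groups. Of filtered nuclei they formed 8.61%, 7.49% and 3.28% in MGNS 1, 2 and 3 and 2.26%, 1.84% and 1.31% in MGHS 1, 2 and 3. All MGHS animals lay below all MGNS animals, and MGNS 3 lay nearest to them. The means were 6.46% ± 2.81 (SD, n = 3) in MGNS and 1.80% ± 0.473 (SD, n = 3) in MGHS, a difference of -4.66 percentage points or a 3.58-fold higher share in MGNS. A two-sided exact permutation test gave p = 0.1, adjusted 0.1 over the 2 shares tested, which is the smallest p that 3 animals against 3 can give, so the difference could not pass 0.05.

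T-lineage nuclei as a whole formed 32.8%, 30.3% and 21.4% of filtered nuclei in MGNS 1, 2 and 3, and 21.0%, 17.5% and 11.7% in MGHS 1, 2 and 3. Within them, helper T-like nuclei formed 25.8%, 23.9% and 14.8% in MGNS 1, 2 and 3 and 10.7%, 10.4% and 10.9% in MGHS 1, 2 and 3. The MGHS animals lay close together and below every MGNS animal. The means were 21.5% ± 5.89 (SD, n = 3) and 10.7% ± 0.272 (SD, n = 3), a difference of -10.8 points (exact permutation p = 0.1, adjusted 0.1).

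With all nuclei thinned to 2000 UMIs before the rule was applied, and shallower ones left out, the shares of T-lineage nuclei were 15.1% ± 1.81 (SD, n = 3) and 7.99% ± 0.583 (SD, n = 3), again without overlap. Without MGHS 3 the differences were -4.41 and -10.9 points. Exact 95% binomial intervals, which cover counting error alone, are drawn in the plot of shares.

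The share rests on whether LEF1, TCF7 and the other 4 genes were detected, and detection of some differed in T-lineage nuclei at large. LEF1 was detected in 61.1%, 54.5% and 51.8% of T-lineage nuclei in MGNS 1 to 3 and in 40.6%, 39.8% and 37.0% in MGHS 1 to 3. TCF7 was detected in 29.0%, 20.9% and 19.3% against 13.3%, 11.0% and 13.8%. For both genes every MGHS animal lay below every MGNS animal, while CAMK4, CD4, THEMIS and CD28 overlapped. Fewer nuclei of this kind and less LEF1 or TCF7 RNA per T cell nucleus cannot be told apart here. In keratinocyte nuclei, not thinned, LEF1 was detected in 13.1%, 12.4% and 8.2% in MGNS 1 to 3. In MGHS 1 to 3 it was detected there in 5.1%, 2.7% and 5.6%. CAMK4, THEMIS and CD28 were likewise lower in keratinocyte nuclei of every MGHS animal, while TCF7 and CD4 overlapped. The part of such background RNA in the share was not tested. Median depth of T-lineage nuclei overlapped between groups, at 2444 to 4017.5 UMIs in MGNS and 2748 to 3033.5 in MGHS.

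**Figure D3:**
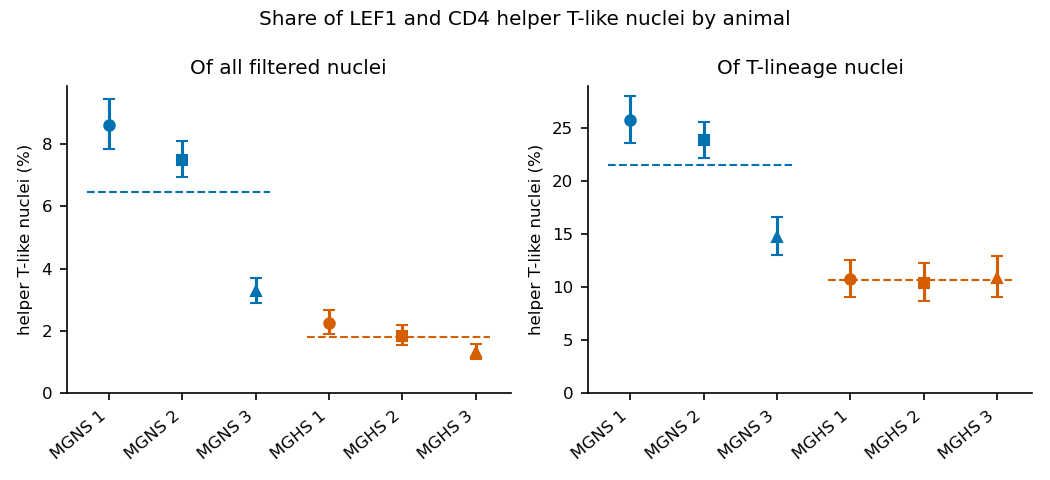
Percent of helper T-like nuclei (y axis) among all filtered nuclei (left) and among T-lineage nuclei (right) in each animal (x axis), with exact 95% binomial intervals and dashed group means. In both panels the 3 MGHS animals sit below the 3 MGNS animals, and MGNS 3 is the lowest of its group.

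Inside the set, the share of nuclei with a UMI was compared for 20 subset genes. CCR7 was detected in 19.2%, 13.3% and 17% of helper T-like nuclei in MGNS 1, 2 and 3 and in 6.8%, 5.0% and 9.8% in MGHS 1, 2 and 3. The groups did not overlap, and they did not overlap after thinning, at 9.95% ± 1.41 against 4.29% ± 0.883 (SD, n = 3 each). In nuclei with at least 5 of the 6 marker genes they overlapped, at 19.1% ± 3.61 against 13.7% ± 4.67 (SD, n = 3 each). The difference in unthinned means, 16.5% against 7.20%, had an exact permutation p of 0.1, and 0.923 after adjustment over the 20 genes. In thinned keratinocyte nuclei CCR7 was also lower in every MGHS animal. It was detected there in 0.65%, 0.52% and 0.47% in MGNS 1 to 3 and in 0%, 0.21% and 0.33% in MGHS 1 to 3. The part of background RNA in the CCR7 difference was not tested. CD69, an early activation and tissue retention receptor, was detected in 20.8% ± 8.20 against 11.0% ± 3.34 of helper T-like nuclei (SD, n = 3 each, exact permutation p = 0.1, adjusted 0.923). The groups did not overlap for CD69, but they overlapped after thinning and without called doublets. None of the 20 genes passed the test, and none could at this number of animals.

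CD40LG pointed the other way, at 34.9%, 23.8% and 21.6% in MGNS 1 to 3 against 36.4%, 45.5% and 24.6% in MGHS 1 to 3. Its groups overlapped (exact permutation p = 0.2, adjusted 0.923).

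Gene levels in the summed helper T-like nuclei were then compared between MGHS and MGNS with edgeR's quasi-likelihood F test. Of 8447 genes that passed the filter on low counts, 7 passed a Benjamini-Hochberg adjusted p of 0.05, or 0.0829%, of which 6 were higher in MGHS (0.071%) and 1 lower (0.0118%). DESeq2 called 93 of 11379 genes (0.817%) and limma voom 6 (0.071%). All 7 had an edgeR adjusted p of 0.0435. With limma voom, DYNC1I1 and LOC105616444 of these 7 did not pass (adjusted p = 0.0648 and 0.116). An unadjusted p under 0.05 was reached by 699 genes, or 8.28%. For 6.83% of genes all MGHS animals lay above all MGNS animals and for 6.85% below, and the median log2 fold change over all genes was 0.00.

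DYNC1I1, which encodes an intermediate chain of the dynein motor, had the largest change of the 7. Its level was 4.81, 2.58 and 1.12 CPM in MGNS 1, 2 and 3 and 40.2, 41.3 and 23.7 CPM in MGHS 1, 2 and 3. Every MGHS animal was far above every MGNS animal, with a log2 fold change of 3.44 (SE 0.48). The rise was seen in other lymphocyte gates of the same animals: the other T-lineage nuclei had 5.87 ± 0.731 against 50.7 ± 9.68 CPM (SD, n = 3 each; edgeR adjusted p = 0.0102). There, DYNC1I1 was the only gene of 13642 to pass (0.00733%). The cytotoxic gate had 4.44 ± 2.26 against 40.7 ± 16.5 CPM (adjusted p = 0.0297, one of 68 genes called there, or 0.703%). Keratinocyte nuclei had 2.33 ± 0.94 against 4.64 ± 1.33 CPM (adjusted p = 0.218), below the helper T-like nuclei of every MGHS animal.

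LOC105616444, which the gene table lists without a name, was the 1 that fell. It had 38.0, 32.4 and 32.4 CPM in MGNS 1 to 3 and 5.02, 6.19 and 5.93 CPM in MGHS 1 to 3, without overlap (log2 fold change -2.58 ± 0.35, SE). With 484604 to 597381 UMIs summed per MGHS animal, these MGHS levels rest on few UMIs of the gene. Their closeness therefore says little about the spread between animals. In keratinocyte nuclei it was at 185 ± 28.7 against 109 ± 1.5 CPM (SD, n = 3 each).

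The other 5 that rose were KRT13, GPC3, CASZ1, LDLRAD3 and SEC14L1. KRT13, a keratin of stratified epithelium, went from 4.37, 13.3 and 10.0 CPM in MGNS 1 to 3 to 75.3, 103 and 89.0 CPM in MGHS 1 to 3 (log2 fold change 3.26 ± 0.37, SE). In keratinocyte nuclei KRT13 was at 127 ± 74.3 against 417 ± 128 CPM (SD, n = 3 each), higher than in helper T-like nuclei in every animal. GPC3, a heparan sulphate proteoglycan, rose from 7.37 ± 1.29 to 41.0 ± 8.04 CPM (SD, n = 3 each). CASZ1, a zinc finger transcription factor, rose from 21.0 ± 4.11 to 82.4 ± 15.5 CPM. LDLRAD3, of the LDL receptor family, and SEC14L1, of the SEC14 lipid-binding family, rose from 87.6 ± 8.72 to 207 ± 15 CPM and from 60.9 ± 3.49 to 149 ± 14.9 CPM. The log2 fold changes of these 4 genes, in the order given, were 2.45 ± 0.32, 1.95 ± 0.26, 1.24 ± 0.17 and 1.29 ± 0.18 (SE).

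None of the 7 genes had a higher level in helper T-like nuclei than in the other nuclei of the same animal in all 6 animals. Of 2787 tested genes that did, 0 passed the test, with an unadjusted p under 0.05 for 36 higher and 134 lower in MGHS and a median log2 fold change of -0.07. Among the remaining 5651 genes, 6 rose and 1 fell, with a median of 0.06. Markers of other cell types were measured in the same sums. All 10 tested keratinocyte markers had a log2 fold change above 0 (median 0.85, none past the test), against 50.4% of all genes and 56.8% of those 5651. The median was 0.67 without MGHS 3. Their summed level over 12 genes was 581 to 640 CPM in the helper T-like nuclei of MGNS and 650 to 1969 CPM in those of MGHS. For the 9 fibroblast markers, 7 lay above 0 (median 0.72), with sums of 669 to 1300 and 1230 to 2245 CPM, though this median ranged from -0.03 to 1.25 over the alternatives and was 0.90 without MGHS 3. Smooth muscle and pericyte markers summed to 84.8 to 99.3 CPM in MGNS and 156 to 215 CPM in MGHS, and innate lymphoid or NK markers to 171 to 213 and 241 to 343 CPM. Sums of blood and lymphatic endothelial, macrophage, neutrophil, B or plasma and mast cell markers overlapped between groups, and S100B, SOX10, CLEC9A and MS4A2 were at 0 in all 6 animals. The part of these RNAs in the 7 calls was not tested.

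The next genes by p were also above in every MGHS animal without passing. RAB24, a vesicle GTPase, had 59.8 ± 8.54 against 154 ± 15.7 CPM, and PRSS22, an epithelial serine protease, 5.08 ± 1.65 against 34.2 ± 8.84 CPM (SD, n = 3 each; edgeR adjusted p = 0.0503 for both). SPARC and ECM1, matrix proteins, had log2 fold changes of 1.30 ± 0.19 and 1.34 ± 0.21, and ARRDC4, an arrestin-domain protein, 1.62 ± 0.25 (SE; adjusted p = 0.051, 0.0702 and 0.0686). RAB24 was at 1.36 on that scale. Without called doublets the log2 fold changes were 0.62 for RAB24, 0.42 for ECM1, 0.99 for ARRDC4 and 1.03 for SPARC, with edgeR adjusted p of 0.92 to 0.933. Without MGHS 3, PRSS22 and ECM1 passed the test (edgeR adjusted p = 0.0411 for both).

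**Figure D4:**
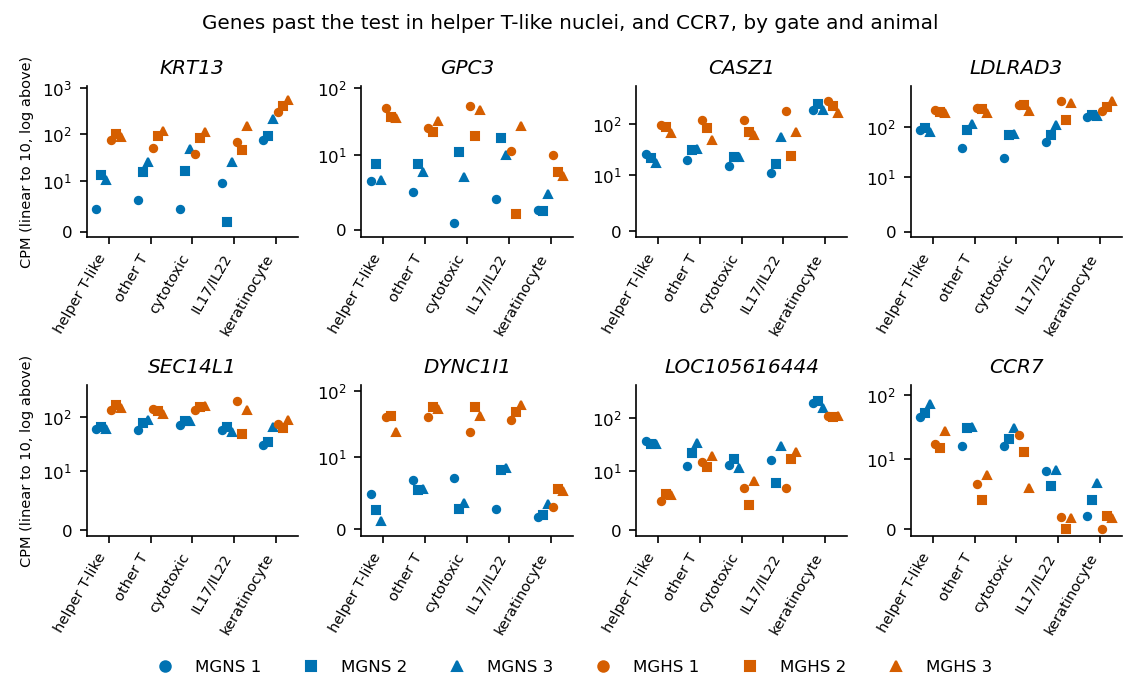
Level in CPM (y axis, linear to 10 and logarithmic above) of the 7 genes past the test in helper T-like nuclei, and of CCR7, in 5 gates (x axis), 1 point per animal. DYNC1I1 in all MGHS animals lay above all MGNS animals in each lymphocyte gate and was low in keratinocyte nuclei, whereas KRT13 was highest in keratinocyte nuclei.

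The number of calls depended on single animals. It was 0 without MGNS 3 or without MGHS 1, 5 without MGHS 2 (none of the 7 among them), 2 without MGNS 1, 1 without MGNS 2 and 27 without MGHS 3, with 6 of the 7 kept and LOC105616444 at an adjusted p of 0.0541 by edgeR. Without the 103 called doublets edgeR passed 0 genes, with 387 at an unadjusted p under 0.05. The log2 fold change was then 3.12 for DYNC1I1, -2.87 for LOC105616444 and 2.60 for KRT13, but 1.05 for CASZ1, 0.21 for LDLRAD3 and 0.19 for SEC14L1. GPC3 was then not tested, as it did not pass the filter on low counts. In nuclei with at least 5 of the 6 marker genes LDLRAD3 was at 2.15, CASZ1 at 2.58 and SEC14L1 at 1.36, and 0 genes passed. KRT13, GPC3, LOC105616444 and DYNC1I1 did not pass the filter in those nuclei and were not tested.

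Among genes that mark a resting, recirculating T cell, 21 of 24 were tested, 0 passed, and 18 of 21 had a log2 fold change below 0, against 49.6% of all genes and 62.4% of the 2787 genes that were above the other nuclei in all 6 animals. In 5 of 21 all MGHS animals lay below all MGNS animals (23.8%, against 6.85% of all genes and 11.3% of the 2787). The list's median was -0.30, against 0.00 over all genes, and -0.27 without MGHS 3. CCR7 lay at 45.0, 51.6 and 71.4 CPM in MGNS 1, 2 and 3 and at 16.7, 14.4 and 27.7 CPM in MGHS 1, 2 and 3. All 3 MGHS animals were below all MGNS animals, at -1.49 ± 0.31 on the log2 scale (SE; adjusted p = 0.148 by edgeR). Over its alternatives the value ran from -1.78 to -0.61, the latter in nuclei with at least 5 of the 6 marker genes. The other T-lineage nuclei showed 25.6 ± 8.40 against 6.06 ± 1.83 CPM (SD, n = 3 each; edgeR adjusted p = 0.142).

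PDE3B, a phosphodiesterase, and ACTN1, an actin crosslinker, also lay lower in all MGHS animals, at log2 fold changes of -0.75 ± 0.24 and -0.64 ± 0.23 (SE; adjusted p = 0.397 and 0.491). MAL, a raft protein of T cells and of epithelia, had 134 ± 52.3 against 414 ± 76.8 CPM (SD, n = 3 each; log2 fold change 1.64 ± 0.29, SE; adjusted p = 0.117). MAL was also higher in keratinocyte nuclei, at 371 ± 64.2 against 672 ± 152 CPM, and without called doublets its log2 fold change was 0.72. LEF1 itself, which chose the nuclei and is given without a test, had 1184, 1193 and 1614 CPM in MGNS 1 to 3 and 862, 894 and 929 CPM in MGHS 1 to 3.

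The NF-kB list, whose members turn receptor signals into survival and cytokine programmes, had 19 tested members, 0 past the test and 16 below 0 (84.2%, against 49.6% of all genes and 62.4% of the 2787 above the other nuclei), with a median of -0.25, and -0.24 without MGHS 3. In 6 of 19 all MGHS animals lay below all MGNS animals (31.6%, against 6.85% and 11.3%). RELB, the subunit of the non-canonical branch, had 46.8, 60.5 and 49.1 CPM in MGNS 1, 2 and 3 and 13.4, 18.6 and 21.7 CPM in MGHS 1, 2 and 3. The groups were far apart, at -1.55 ± 0.28 on the log2 scale (SE; adjusted p = 0.105 by edgeR), and -0.998 in nuclei with at least 5 of the 6 marker genes. RELB was likewise at 55.2 ± 8.10 against 27.9 ± 2.53 CPM in other T-lineage nuclei and at 15.6 ± 3.54 against 4.71 ± 1.14 CPM in keratinocyte nuclei (SD, n = 3 each). The other 5 without overlap, NFKB1, NFKB2, TRAF3, CHUK and CYLD, had log2 fold changes between -0.80 and -0.23, none past the test. PIM2, a survival kinase that was chosen after its values were seen, had 36.8 ± 4.07 against 13.2 ± 1.30 CPM (SD, n = 3 each; log2 fold change -1.47 ± 0.29, SE; adjusted p = 0.133).

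Receptor signalling genes gave no call. Of 33 tested T cell receptor signalling genes, 0 passed and 22 lay below 0 (66.7%), close to the 62.4% of the 2787 genes above the other nuclei. The median was -0.10, and -0.0042 without MGHS 3. PRKCQ, the kinase that links the receptor to NF-kB, had 325 ± 38.6 against 217 ± 9.21 CPM (SD, n = 3 each; log2 fold change -0.58 ± 0.15, SE; edgeR adjusted p = 0.264). SH2D1A and SH2D2A, adaptors of the receptor pathway, had log2 fold changes of -0.65 ± 0.24 and -0.95 ± 0.30 (SE; adjusted p = 0.529 and 0.383), and SH2D1A was at -0.40 without MGHS 3. Of 35 cytokine receptor and JAK-STAT genes, 0 passed and 23 lay below 0 (65.7%; median -0.12, and -0.16 without MGHS 3), with STAT5B, which acts downstream of interleukin 2 and 7, at 428 ± 22.5 against 315 ± 17.7 CPM (adjusted p = 0.376).

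Subset lists gave no call in either direction, and each median given here except that of the residence and homing genes changed sign under at least 1 alternative. Medians were -0.23 for 9 type 1, -0.12 for 5 type 2 and 0.20 for 10 type 17 helper genes, 0.02 for 9 regulatory T cell genes and -0.29 for 8 follicular helper genes. Without MGHS 3 they were, in the same order, -0.0044, 0.081, 0.31, 0.28 and -0.21. AHR, a receptor for ligands from diet and microbes that is known in type 17 cells, had 231 ± 18.9 against 314 ± 40.6 CPM without overlap (SD, n = 3 each; log2 fold change 0.45 ± 0.15, SE; adjusted p = 0.456). The list of 16 co-stimulation and checkpoint genes had a median of 0.07, and 0.14 without MGHS 3. Medians of 8 cytotoxic, 4 gamma delta and 17 residence and homing genes were -0.15, -0.39 and -0.17, and -0.033, -0.52 and -0.10 without MGHS 3. CXCR4, a homing receptor, had 66.5 against 30.5 CPM on average without overlap (log2 fold change -1.15 ± 0.44, SE; adjusted p = 0.540).

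Housekeeping and stress lists were also without a call. Of 77 ribosomal protein genes, 73 lay below 0 (94.8%), against 49.6% of all genes and 62.4% of the 2787 genes above the other nuclei. Their median was -0.17, though it ranged from -0.31 to 0.02 over the alternatives and was -0.16 without MGHS 3. The 61 oxidative phosphorylation genes and 12 genes of the mitochondrial genome had medians of 0.13 and 0.21, and -0.038 and 0.33 without MGHS 3. Medians were -0.17 for 25 interferon response genes, 0.05 for 16 immediate early genes, -0.04 for 5 G1/S and S genes, 0.31 for 3 G2/M genes and -0.13 for 4 GIMAP genes. Without MGHS 3 they were, in the same order, -0.15, -0.077, -0.091, 0.14 and -0.45. Over the alternatives, the medians of the G2/M and GIMAP lists kept their sign, from 0.12 to 0.45 and from -0.45 to -0.012, and the others of this paragraph did not.

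The selenoprotein list had 15 tested members, none past the test, and a median of -0.04, which changed sign under some alternatives and was -0.11 without MGHS 3. SELENOW, a small redox protein, had 57.3, 26.2 and 39.0 CPM in MGNS 1 to 3 and 98.8, 97.0 and 142 CPM in MGHS 1 to 3, without overlap (log2 fold change 1.45 ± 0.31, SE; edgeR adjusted p = 0.148). GPX1, a peroxide-reducing enzyme, had 126, 73.4 and 106 against 142, 264 and 204 CPM (log2 fold change 0.99 ± 0.28, SE; adjusted p = 0.312). Both were also higher in the keratinocyte nuclei of MGHS, at 36.2 ± 6.80 against 138 ± 18.9 CPM for SELENOW and 42.3 ± 14.1 against 300 ± 57.4 CPM for GPX1 (SD, n = 3 each; adjusted p = 0.0652 for both).

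The last comparison asked whether the group difference in helper T-like nuclei differed from that in other lymphocytes of the same animals, by a class-by-group term with the animal as a block. Against the cytotoxic gate 3 of 10142 genes passed (0.0296%), namely PADI1, FBXO32 and IL23R, and 809 had an unadjusted p under 0.05 (7.98%). Against IL17 or IL22 nuclei 0 of 8758 passed (0%), with an unadjusted p under 0.05 for 366 genes, or 4.18%.

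IL23R, the receptor chain for interleukin 23, had 59.9, 32.8 and 45.7 CPM in helper T-like nuclei of MGNS 1, 2 and 3 and 50.2, 105 and 29.7 CPM in MGHS 1, 2 and 3, with overlap. In the cytotoxic gate it had 97.2, 37.1 and 77.8 against 14.4, 19.2 and 12.7 CPM, so that all MGHS animals were lower there. The difference between the 2 log2 fold changes was 2.44 ± 0.35 (SE; edgeR adjusted p = 0.0488). The count of 3 ran from 0 to 28 when 1 animal was left out, and was 28 without MGHS 3.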

How the data were processed

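Nuclear RNA of 6 animals was measured by droplet sequencing, 1 library each. The deposited matrices hold raw UMI counts per gene and barcode, per the file headers made with Cell Ranger 8.0.0; the submitters' processing notes name Cell Ranger 2.1.1, and no genome build was given in the sources used. All 26741 gene numbers were matched to symbols of ARS-UI_Ramb_v3.0, for names only.

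Members, gene lists and tests were chosen with earlier results of these data known. Counts of the 1650 nuclei were summed per animal and compared by edgeR 4.0.16 under R 4.3.3 (filterByExpr minimum 10, TMM, robust quasi-likelihood F test, Benjamini-Hochberg adjusted p under 0.05), with all 6 animals and no covariate. DESeq2 1.42.0 and limma 3.58.1 voom were alternatives, as were other filters, thinning, doublet removal and leaving out each animal. One alternative was added after seeing the data: nuclei with at most 1 keratinocyte and 1 fibroblast marker in 5 animals. Shares were tested by two-sided exact permutation over all splits of the animals, for which 3 against 3 allows no p under 0.1. Binomial intervals were computed with scipy 1.17.1. Doublets were called with Scrublet in scanpy 1.11.5 (in MGNS 1, where under 0.5% were called, the top scores at 0.8% per 1000 nuclei were taken). Scripts were tested on simulated data.

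Cytotoxic nuclei held at least 3 of GNLY, GZMK, PRF1, NKG7, CCL5, EOMES, TBX21 and KLRK1. T-lineage nuclei held at least 3 of 7 T cell genes, among them CD3D, CD3E, CD247, CD2, SKAP1 and BCL11B, at most 1 keratinocyte gene of the rule and no PAX5.

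Named genes were the 12 smallest p among non-overlapping genes with at least 20 CPM in a group, up to 4 of the smallest p per list, and GPX1, SELENOW, SLC28A3 and DYNC1I1. SLC28A3 did not pass the filter (14.0 against 7.86 CPM). PIM2, SHC3, ACTN1, NFKB2, CHUK, CYLD and the rule genes were named after their values were seen. Some single-gene results are not reported here.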

Additional observations from a re-analysis of the deposited data

Results flagged for a closer look

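PADI1, FBXO32 and IL23R were listed because their group difference in helper T-like nuclei differed, by the class-by-group term of edgeR, from that in the cytotoxic gate of the same animals. PADI1, a peptidylarginine deiminase of stratified epithelium, had a difference between log2 fold changes of -2.98 ± 0.37 (SE; adjusted p = 0.0322): it was at 43.2 ± 15.9 against 129 ± 61.8 CPM in helper T-like nuclei, at 8.84 ± 5.33 against 211 ± 92.9 CPM in the cytotoxic gate and at 64.9 ± 15.1 against 182 ± 56.7 CPM in keratinocyte nuclei (SD, n = 3 each, MGNS against MGHS). FBXO32, a subunit of a ubiquitin ligase, had a difference of -1.43 ± 0.19 (SE; adjusted p = 0.0322), with 110 ± 43.2 against 319 ± 269 CPM in helper T-like nuclei and 54.4 ± 20.3 against 400 ± 283 CPM in the cytotoxic gate. It was also at 67.4 ± 25.3 against 170 ± 112 CPM in keratinocyte nuclei (SD, n = 3 each), and MGHS 1, 2 and 3 lay at 608, 274 and 75.1 CPM in helper T-like nuclei, the last inside the MGNS range. IL23R had a difference of 2.44 ± 0.35 (SE; adjusted p = 0.0488).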

How the results depend on the processing

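The lower share of helper T-like nuclei in MGHS kept its direction under all 11 alternatives, from -6.25 to -3.58 points of filtered nuclei and from -14.2 to -8.66 points of T-lineage nuclei with 1 animal left out. Counts of genes moved: against 7, there were 352 without a filter on low counts (20546 genes tested), 93 with DESeq2 (84 higher), and 0 to 27 with 1 animal left out. The count was 0 with at least 5 of 6 marker genes, without called doublets (smallest adjusted p 0.745) and with at most 1 keratinocyte and 1 fibroblast marker in 5 animals; unadjusted p under 0.05 was reached there by 394, 387 and 394 genes, and DESeq2 and voom were run on all members only. With limma voom 6 genes passed. Class-by-group counts against the cytotoxic gate were 238 without the filter and 0 to 28 with 1 animal left out, and against IL17 or IL22 nuclei 57 without the filter and 0 with 1 animal left out. The cause was not tested.

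As the labels number replicates alike in both groups, a fit with the replicate number as a block was run: 0 of 8447 genes passed (smallest adjusted p 0.0551, 635 unadjusted), and 0 against the cytotoxic gate. The deviations of same-numbered animals had correlations of -0.0186, 0.0201 and 0.00765, and those of differently numbered animals ran from -0.0446 to 0.0393. With so few animals and sparse sums, such small values cannot decide whether the numbers pair the animals.

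Directions near 0 turned. Log2 fold changes without called doublets were 0.0047 for GATA3, 0.030 for IL4R, 0.077 for KIF20B and 0.068 for GIMAP1. With few marker genes of other cells they were 0.31 for GATA3, 0.13 for IL4R, 0.31 for PCNA, -0.030 for HELLS, 0.048 for GIMAP1 and -0.18 for TCF7. TCF7 was at -0.055 without the filter and -0.013 with DESeq2, and CD28 at 0.012 with at least 5 of 6 genes. With 1 animal left out the ranges were -0.25 to 0.0021 for GATA3, -0.31 to 0.081 for IL4R, -0.24 to 0.47 for HELLS, -0.32 to 0.14 for KIF20B, -0.29 to 0.086 for GIMAP1 and -0.070 to 0.14 for TCF7. Differences in detection share, in points, were after thinning 1.72 for ICOS, -0.278 for IL21, 0.111 for CD8A, 0.140 for CD8B, 1.90 for GATA3, 0.0576 for TBX21 and -0.418 for ITGAE. With at least 5 of 6 genes they were 0.693 for CXCR5, 3.83 for GATA3 and -0.686 for ITGAE. With 1 animal left out they ran from -1.24 to 0.0829 for FOXP3, -3.55 to 1.64 for CTLA4, -5.37 to 1.38 for ICOS, -2.24 to 1.17 for CXCR5, -0.0472 to 0.795 for IL21, -4.61 to 0.589 for CD8B, -4.98 to 1.73 for GATA3, -2.73 to 0.0365 for TBX21 and -1.40 to 6.09 for ITGAE.

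Each MGHS animal gave at most 597381 UMIs in these nuclei, so its low genes carry a larger counting error.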

Other observations

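SHC3, a signalling adaptor known mainly from neurons, was noticed after its values were seen. It had 29.7, 24.3 and 33.5 CPM in helper T-like nuclei of MGNS 1 to 3 and 104, 111 and 61.3 CPM in those of MGHS 1 to 3, without overlap (log2 fold change 1.69 ± 0.29, SE; edgeR adjusted p = 0.0843, and 0.0345 without MGHS 3). It was higher in these nuclei than in the other nuclei in all 6 animals, and at 4.26 ± 0.683 against 4.13 ± 2.36 CPM in keratinocyte nuclei (SD, n = 3 each). In IL17 or IL22 nuclei it was at 163 ± 59.7 against 178 ± 43.0 CPM.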
